A study of Mus musculus with 6 samples.

Results

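The let-7 family guide strands, the 5p arms of let-7a, let-7b, let-7c, let-7d, let-7e, let-7f, let-7g and let-7i together with the closely related miR-98-5p, were measured in exosomes of mouse endothelial cells. Members were taken by probe name, and all 9 listed names were found among the 1118 mouse miRNA probes of the array. Exosomes, small vesicles of endosomal origin, were collected by differential centrifugation from the culture supernatant of commercial mouse endothelial cells after 48 h. The cells had been kept at 0.9 mM inorganic phosphate (normal phosphate, 3 arrays) or at 3.5 mM (high phosphate, 3 arrays), and the study asks which miRNAs such vesicles carry when phosphate is raised as in end-stage kidney disease. Both groups shared an F-12K medium with 12% fetal bovine serum, penicillin, streptomycin, an endothelial growth supplement and heparin. The sources used here do not state the cells' strain or passage, or whether serum vesicles had been removed. No allele or transgene is named.

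The let-7 miRNAs are strongly conserved across animals and accumulate as cells differentiate. A guide strand is loaded into an Argonaute protein and represses messenger RNAs that pair with its seed, bases 2 to 8. Well-known targets are the mRNAs of Lin28, Hmga2 and the Ras proteins, and LIN28 in turn blocks the maturation of most let-7 precursors. In endothelial cells let-7 is known as abundant and as a repressor of transforming growth factor beta signalling.

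The mature sequences, all 22 bases long and from RefSeq (GRCm38.p6), are shown with the names used on the array because the members are so alike that an array probe for one may also bind another. The seed is in capitals, and it was the same in all 9 members.
mmu-let-7a-5p: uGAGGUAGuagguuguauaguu
mmu-let-7b-5p: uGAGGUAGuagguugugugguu
mmu-let-7c-5p: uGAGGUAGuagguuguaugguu
mmu-let-7d-5p: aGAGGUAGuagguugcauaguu
mmu-let-7e-5p: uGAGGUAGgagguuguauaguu
mmu-let-7f-5p: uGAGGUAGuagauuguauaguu
mmu-let-7g-5p: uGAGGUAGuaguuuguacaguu
mmu-let-7i-5p: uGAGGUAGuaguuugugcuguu
mmu-miR-98-5p: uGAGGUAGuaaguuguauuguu

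Of the 36 possible pairs, 4 differed at a single base and 10 at 2 bases, and the most distant pair, let-7d-5p and let-7i-5p, differed at 6. Counted from the 5′ end, let-7a-5p and let-7c-5p differed by A19G, let-7a-5p and let-7e-5p by U9G, and let-7a-5p and let-7f-5p by G12A. The fourth pair was let-7b-5p and let-7c-5p, with G17A. Signal on a probe is therefore reported for the probe, and how much of it came from a near-identical relative was not tested.

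The genes lie in several clusters of the genome (GRCm38.p6). On the minus strand of chromosome 13 the hairpins of let-7d, let-7f-1 and let-7a-1 stand together, with the mature let-7a-5p at chr13:48538239-48538260, let-7f-5p at chr13:48537889-48537910 and let-7d-5p at chr13:48536078-48536099. None of these 3 hairpins falls within the span of another annotated gene of the table used. A further let-7a hairpin, chr9:41536716-41536811, lies in the long noncoding RNA gene Mir100hg near miR-100. The let-7c-2 hairpin at chr15:85706603-85706697 and the let-7b hairpin at chr15:85707319-85707403 share the noncoding RNA gene Lncppara, while let-7c-1 at chr16:77599657-77599750 neighbours miR-99a. The let-7e hairpin, chr17:17830352-17830444, lies within Spaca6 beside miR-99b and miR-125a. On the X chromosome let-7f-2 (chrX:151912346-151912428) and miR-98 (chrX:151913214-151913321) both lie within Huwe1, which encodes a ubiquitin ligase. The let-7g hairpin, chr9:106178840-106178927, lies within Wdr82, and let-7i, chr10:122985640-122985724, stands alone. Exon or intron positions within these genes were not analysed here. Both let-7a and let-7c, and also let-7f, have 2 hairpins with the same guide strand, so an array cannot tell their genes apart.

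The family was bright on every array. Signal is given as foreground minus local background, in scanner units, averaged over a probe's 4 spots and before any scaling. Between 6 and 7 of the 9 members ranked among the 50 brightest of the 1118 mouse probes on each array, and 7 to 9 among the 100 brightest. A probe counted as detected when it exceeded the 95th percentile of 57 probes for miRNAs of mouse viruses, a threshold of 1627 to 3233 units. Of the members, 8 passed this on all 6 arrays and let-7f-5p on 3, the smallest number that admits a probe to testing, so all 9 were among the 129 probes tested. Over the whole array, 97 to 147 mouse probes passed on an array. On high phosphate replicate 2 the copies of several members' spots disagreed, so the members' log2 differences are given with and without it. Together the members made up 8.20% to 8.74% of the summed mouse probe signal on normal phosphate arrays and 6.36% to 7.69% on high phosphate arrays. High phosphate replicate 2, at 7.50%, lay inside the latter range, which is the same without it. That share rests on probes of unequal brightness and is given without a test.

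On the quantile normalized log2 scale the mean level over 6 arrays ran in the order let-7g-5p (14.72), let-7a-5p (14.23), let-7i-5p (14.18), let-7b-5p (13.80), let-7c-5p (13.60), let-7d-5p (13.08), miR-98-5p (12.66), let-7e-5p (11.94) and let-7f-5p (10.79). Each probe binds its target with its own strength, so this is an order of probe signal and not of molecule numbers. Ranges over the arrays overlapped for all 8 pairs of neighbours in that order. The upper neighbour was brighter on 6 of 6 arrays only for let-7g-5p over let-7a-5p, with a gap of 0.48. For let-7e-5p over let-7f-5p, the widest gap at 1.15, it was brighter on 3 of 6.

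**Figure D1:**
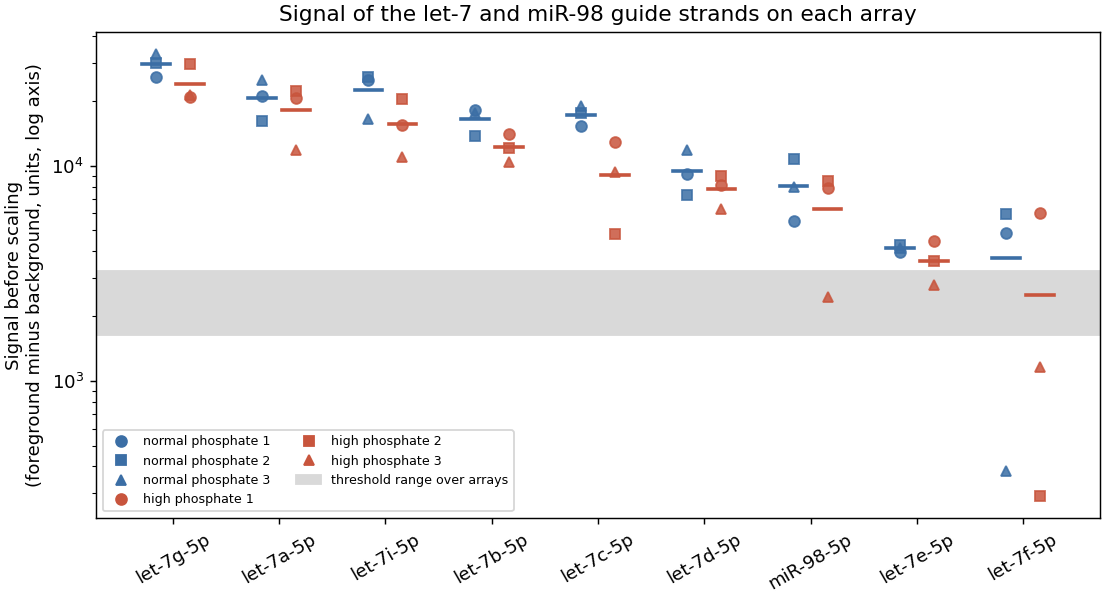
Signal before scaling (foreground minus background, units, log axis) of each guide strand on the 3 normal and 3 high phosphate arrays, with horizontal bars at the group means and a grey band for the range of the detection threshold. Groups overlap for 8 of 9 members, let-7c-5p being the exception, and let-7f-5p spans from 292.5 to 6050.5 units.

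Between the phosphate levels no guide strand passed the test. After quantile normalization 7 of the 9 had a lower mean in high phosphate, against 51.9% of all 129 tested probes, and the median log2 difference was -0.18, against -0.02 over all tested probes. Called by limma with Benjamini-Hochberg adjustment were 0 members, as were 0% of tested probes, and the lowest adjusted p of a member was 0.709. At an unadjusted limma p under 0.05 the members also numbered 0, where 6.98% of tested probes lay under it. The members' 95% intervals extended a median of 0.57 to either side on the log2 scale. Since RNA was profiled in bulk, fewer vesicles that carry a miRNA and less of it per vesicle cannot be told apart.

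The let-7c guide strand, made from hairpins on chromosomes 15 and 16, had the smallest p of the family. Its signal was 15241.5, 17601 and 18950.5 units on the normal phosphate arrays 1 to 3 and 12945, 4838.75 and 9305 units on the high phosphate arrays. It was the 1 member whose groups did not overlap before scaling, where 11.6% of tested probes lay apart in that direction. The mean was 17264 ± 1877 units in normal and 9030 ± 4060 units in high phosphate (SD, n = 3). An exact 2-sided permutation test gave p = 0.1, below which this design cannot go. After normalization the log2 difference was -0.79 (SE 0.37; 95% interval -1.66 to 0.09; limma, adjusted p = 0.709). The groups lay apart on that scale too, as did 5.43% of tested probes in the same direction. No member lay apart in the other direction (0 of 9), where 2.33% of tested probes did before scaling and 4.65% after it. Without high phosphate replicate 2, the dimmest array for this probe, the log2 difference was -0.35. Scaled to the spike controls it was -0.37 and scaled to the Hy3 spots -0.34, but it was -1.48 with the median of the spots and -1.77 with the deposited normalized intensities.

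Its neighbour on chromosome 15, let-7b-5p, which differs from it by 1 base, measured 18253.5, 13742.5 and 17662 units in normal and 14069.5, 12043 and 10442 units in high phosphate. The highest high phosphate array lay just above the lowest normal one, so the groups overlapped. Its log2 difference was -0.08 (SE 0.20; 95% interval -0.54 to 0.38; limma, adjusted p = 0.948).

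The chromosome 13 cluster yields the guides let-7a, let-7d and let-7f. For let-7a-5p the arrays read 21058, 16185 and 24942 units in normal and 20686, 22204.5 and 11846.5 units in high phosphate. High phosphate replicate 3 was the lowest of these and the other arrays were mixed. The log2 difference was 0.00 (SE 0.24), and the interval from -0.57 to 0.57 allows a change of up to 1.49-fold upward (limma, adjusted p = 0.999). For let-7d-5p, which differs from let-7a-5p by U1A and U16C, the signal was 9127, 7315 and 11845 units in normal and 8094, 8960 and 6314.5 units in high phosphate. Those ranges overlapped as well, and the log2 difference was 0.02 (SE 0.23; limma, adjusted p = 0.999).

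The third guide of that cluster, let-7f-5p, lay above the threshold on some arrays and below it on others, in both groups. It read 4864, 5937.5 and 381.5 units in normal and 6050.5, 292.5 and 1154.5 units in high phosphate. Normal replicate 3 and high replicates 2 and 3 lay below the threshold. Over the 6 arrays its log2 level had an SD of 1.89, against 0.14 to 0.74 for the other members. The log2 difference of -0.79 (SE 1.24) was as large as that of let-7c-5p, but its interval ran from -3.69 to 2.11 (limma, adjusted p = 0.890). It became 0.20 without high phosphate replicate 2 and -1.97 without normal phosphate replicate 3.

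miR-98-5p, encoded beside let-7f-2 in Huwe1, read 5513, 10724 and 7997 units in normal and 7900, 8518 and 2456.5 units in high phosphate. High phosphate replicate 3 stood below every other array. The log2 difference was -0.42 (SE 0.50; 95% interval -1.59 to 0.76; limma, adjusted p = 0.878), and it turned to 0.16 without that array.

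The 3 remaining guides, let-7g, let-7i and let-7e, come from genes outside those clusters. For let-7g-5p, the brightest member, the arrays read 25992, 30107.5 and 32967 units in normal and 20937, 29696 and 21377 units in high phosphate. High replicate 2 lay within the normal range, and the difference of this guide was -0.18 on the log2 scale (SE 0.21; 95% interval -0.66 to 0.31; limma, adjusted p = 0.873). Leaving out 1 array moved it between -0.28 (without high replicate 3) and -0.06 (without high replicate 1), and it was -0.11 without normal replicate 2. For let-7i-5p the arrays read 24972.5, 25790 and 16563 units in normal and 15426, 20439 and 10994.5 units in high phosphate. Normal replicate 3 and high replicate 2 brought the groups to overlap, and the log2 difference was -0.29 (SE 0.29; limma, adjusted p = 0.873). It ran from -0.56 without normal replicate 3 to -0.15 without normal replicate 1, and was -0.19 without normal replicate 2. The least spread in normal phosphate was that of let-7e-5p, at 3985.5, 4300 and 4158 units, against 4457, 3587.5 and 2785 units in high phosphate. Its groups overlapped through high replicate 1, and the log2 difference was -0.13 (SE 0.20; limma, adjusted p = 0.890).

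**Figure D2:**
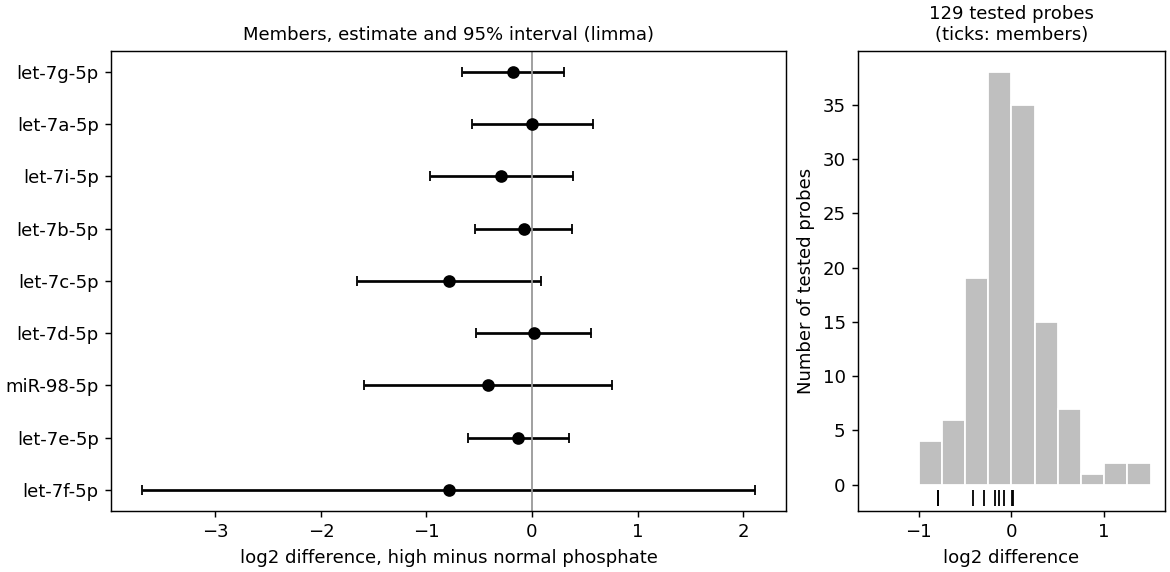
Left, log2 difference (high minus normal phosphate) of each guide strand with its 95% interval from limma, every interval reaching across 0. Right, histogram of the log2 differences of all 129 tested probes with the members as ticks below it, from -0.79 to 0.02.

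The 4 spots of a probe lie in 2 blocks of the array, at the same place in a block numbered 1 to 18 and in the block 18 numbers higher. By the median over the 9 members, the brightest spot of a probe was 3.64 times the dimmest on normal phosphate replicate 3 and 2.57 times on high phosphate replicate 2, and less on the other arrays. Very wide disagreements were most frequent on high phosphate replicate 2. There the brightest spot was at least 10 times the dimmest for 3 of the 9 members, let-7c-5p, let-7e-5p and let-7i-5p, and for 5.43% of tested probes. These 3 members share blocks 13 and 31. For let-7c-5p the spots on that array held 515 and 1788 units in block 13 and 98 and 16954 units in block 31, a ratio of highest to lowest of 173. For let-7i-5p they held 3918 and 956 units in block 13 and 42480 and 34402 units in block 31, and for let-7e-5p 151 and 733 against 6885 and 6581 units. Compared with the other 5 arrays, the block 31 spots of let-7i-5p were brighter there and its block 13 spots dimmer.

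Other tested probes in the same blocks were also dimmer in block 13 on that array, but not only there. Over 11 other tested probes, block 13 spots were dimmer than their block 31 copies in 21 of 22 spot pairs on high phosphate replicate 2, with a median ratio of 0.646. That median was 0.739 on high phosphate replicate 1, with 20 of 22 pairs dimmer, 0.906 on normal phosphate replicate 3, with 18 of 22 dimmer, and between 0.899 and 1.04 on the other 3 arrays. On high phosphate replicate 1 and normal phosphate replicate 3 the 3 members went the other way, with ratios of 2.57 and 2.28 for let-7c-5p, 1.43 and 3.33 for let-7i-5p and 1.18 and 2.02 for let-7e-5p. Over all 18 pairs of blocks the median ratio of other tested probes ran from 0.314 to 2.26 on high phosphate replicate 2, from 0.306 to 1.88 on high phosphate replicate 1 and from 0.922 to 1.07 on normal phosphate replicate 1, so unequal copies were not peculiar to 1 array. The members' own ratios of block 13 to block 31 on high phosphate replicate 2 were 0.135 for let-7c-5p, 0.0656 for let-7e-5p and 0.0634 for let-7i-5p. In blocks 14 and 32, which hold let-7f-5p, the median over 5 other probes was 0.314 on the same array, and 10 of 10 spot pairs were dimmer in block 14. For let-7f-5p itself all 4 spots were dim there, from 120 to 559 units, and on normal phosphate replicate 3 from 165 to 935 units. For miR-98-5p in blocks 8 and 26 the ratio on high phosphate replicate 3 was 0.259, while 5 other probes of these blocks had a median of 1.03. In contrast, the 4 spots of let-7a-5p in blocks 15 and 33 differed by at most 1.47-fold on any array.

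**Figure D3:**
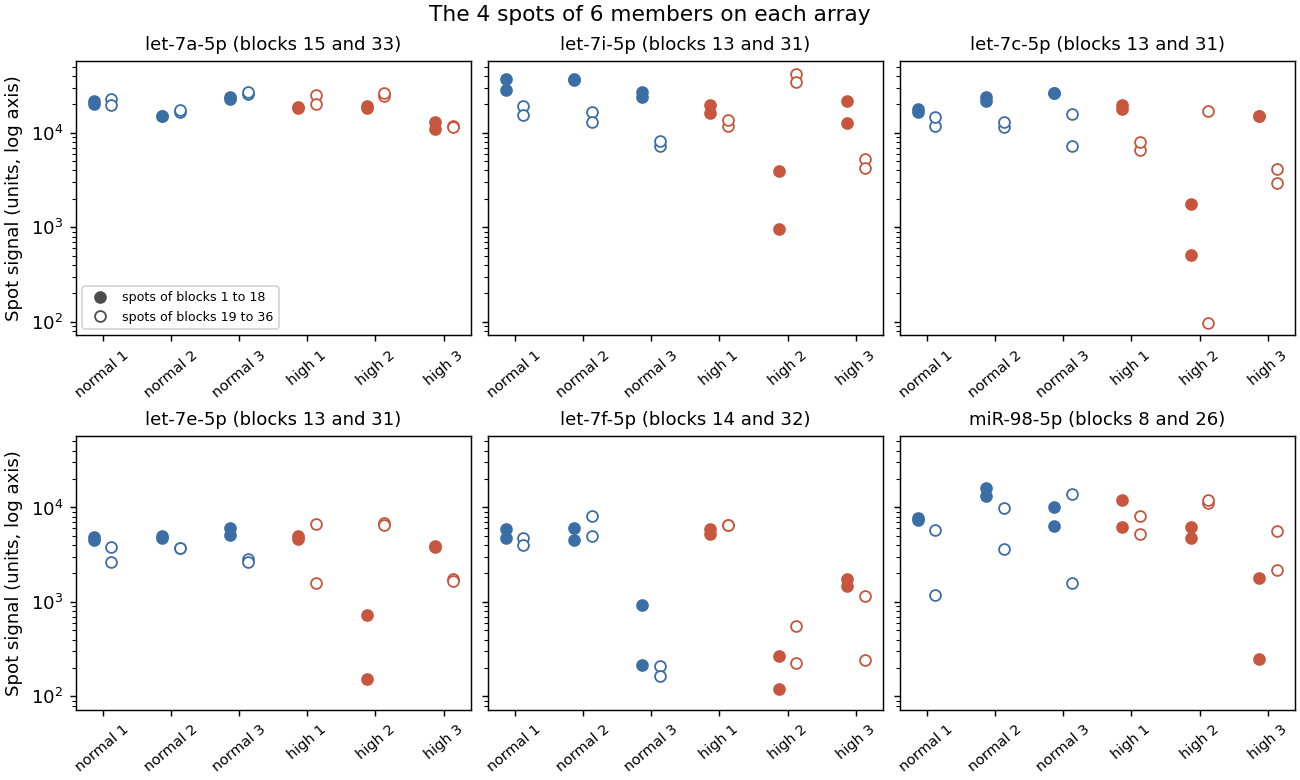
Signal of each of the 4 spots (units, log axis) of 6 guide strands on every array, filled circles for blocks 1 to 18 and open circles for blocks 19 to 36. On high phosphate replicate 2 the filled spots of let-7i-5p, let-7c-5p and let-7e-5p lie between 151 and 3918 units, whereas let-7a-5p stays between 18152 and 26662 units.

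The choice of spots changed the family's summary. With blocks 1 to 18 alone, a setting chosen after seeing the data, the median log2 difference of the members was -0.94 while that of all tested probes was -0.02. With blocks 19 to 36 alone the members' median was 0.026, against 0.018 for all tested probes, and 4 of the 9 were lower in high phosphate. The let-7i-5p difference ran from -1.67 with the former to 0.19 with the latter, that of miR-98-5p from -1.18 to 0.29, and that of let-7e-5p from -1.09 to 0.14. Only let-7b-5p, let-7c-5p, let-7f-5p and let-7g-5p were lower in high phosphate in both sets of spots, with let-7c-5p at -1.48 and -0.89. With blocks 1 to 18 let-7b-5p (-0.0034) and let-7g-5p (-0.047) lay near 0, against -0.53 and -0.41 with blocks 19 to 36. The let-7f-5p values were -0.94 and -0.60. With all 4 spots but without high phosphate replicate 2, 8 of the 9 were lower, against 58.9% of tested probes. The members' median was then -0.16, against -0.07 over all tested probes. The differences were -0.42 for let-7i-5p, -0.16 for let-7e-5p, -0.79 for miR-98-5p, -0.11 for let-7a-5p and -0.095 for let-7d-5p. They were -0.07 for let-7b-5p and -0.19 for let-7g-5p. Leaving out high phosphate replicate 2 from blocks 1 to 18 brought the members' median to -0.07, against -0.03 over all tested probes. There let-7c-5p was at -0.23, let-7e-5p at -0.02 and let-7i-5p at -0.69, while miR-98-5p moved further down to -1.51. Without the 4 members of blocks 13, 14, 31 and 32 the median over all spots was -0.08. The part of these blocks in the differences between phosphate levels was not tested further, and no member passed limma after adjustment in either set of spots.

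Whether near-identical guides changed unequally was examined with the log2 ratio of their signals within each array, for the 4 pairs that differ by 1 base. The ratio of let-7a-5p to let-7c-5p was 0.46, -0.12 and 0.40 in normal and 0.67, 2.18 and 0.35 in high phosphate. High replicate 2 thus stood apart from the other 5 arrays, and the difference of 0.82 (2-sided exact permutation p = 0.3, adjusted 0.6) became 0.26 without that array. The let-7b-5p to let-7c-5p ratio behaved likewise, with a difference of 0.60 (exact permutation p = 0.3, adjusted 0.6) and 0.21 without high replicate 2. With blocks 1 to 18 these differences were 1.37 and 1.41, and with blocks 19 to 36 0.86 and 0.23. With the median of the spots they were 1.52 and 1.18. For let-7a-5p over let-7f-5p the difference was 0.57 (exact permutation p = 0.7, adjusted 0.933), and within each group the ratio had an SD above 2. For let-7a-5p over let-7e-5p it was 0.01, with group means of 2.28 and 2.29 (exact permutation p = 1, adjusted 1), but it was 1.00 with blocks 1 to 18 and -0.33 with blocks 19 to 36. None of the 4 pairs was shown to change unequally, and 3 against 3 arrays cannot give a p under 0.1.

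The direction of the family's median depended on the scaling. Without normalization between arrays all 9 guides had a lower mean in high phosphate, as did 72.1% of tested probes, with medians of -0.44 and -0.22. Spike control probes and Hy3 dye spots were also dimmer on the high phosphate arrays. Scaling to the spike controls gave a median of 0.22 for the members and 0.45 for all tested probes, and scaling to the Hy3 spots gave 0.25 and 0.48. Each control scaling left 2 of the 9 members with a lower mean, against 7.75% of tested probes. Median scaling, no scaling and both control scalings shift every probe of an array by the same amount, so the distance of the members' median from that of all tested probes (-0.23), and the 8 of 9 members below the latter, are the same in all 4 by construction. Quantile normalization, which does not, gave -0.16 and 7 of 9.

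**Figure D4:**
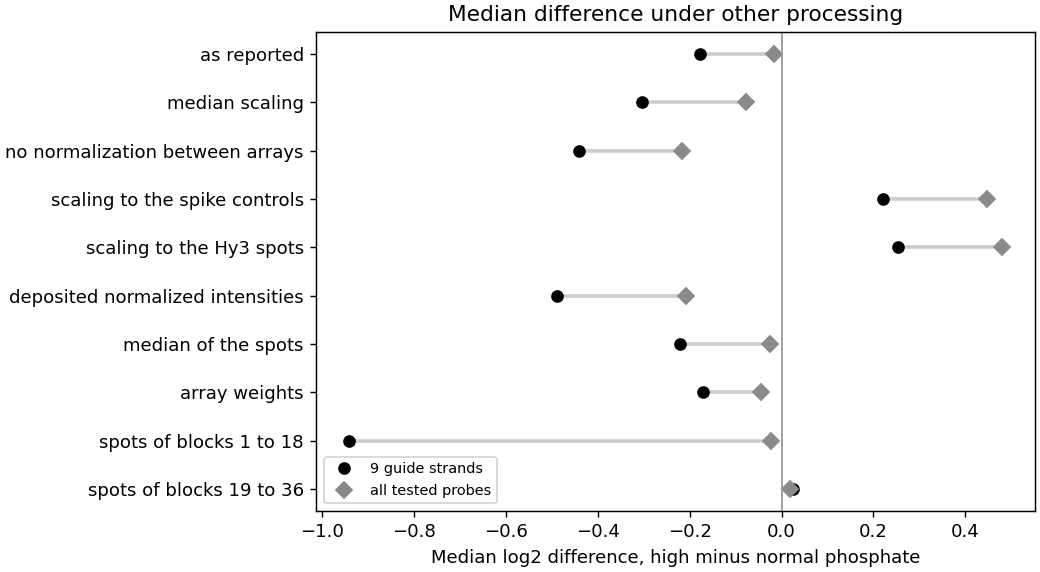
Median log2 difference (high minus normal phosphate) of the 9 guide strands (black circles) and of all tested probes (grey diamonds) under the reported processing and 9 alternatives. The members lie left of all probes throughout except with the spots of blocks 19 to 36 (0.026 against 0.018), and their median ranges from -0.94 to 0.25.

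In the authors' deposited table, all 9 guides had a fold (high over normal phosphate) under 1, as did 70.5% of the probes tested here and 42.9% of all probes with a fold. The lowest fold in the authors' deposited table was 0.446 for let-7c-5p (p = 0.0613), for which the deposited normalized intensity of high phosphate replicate 2 was 3.35 against 27.9 to 60.9 on the other arrays. Only let-7b-5p had a deposited p under 0.05, with a fold of 0.671 (p = 0.0354) in the authors' deposited table, where 3.79% of all probes did. The false discovery rate of both in the authors' deposited table was 0.794, the lowest value it holds. Those values rest on the median of a probe's spots and on factors that differ little between arrays. For let-7b-5p that scale gave a log2 difference of -0.58, against -0.08 after quantile normalization.

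Of the opposite arms, which are mostly degraded when the guide is loaded, the array had 11 probes and 0 exceeded the threshold on any array, so none was tested. The brightest, shared by let-7a-1-3p and let-7c-2-3p, averaged 942 ± 504 units in normal and 542 ± 98.3 units in high phosphate (SD, n = 3). Next were let-7b-3p at 337 ± 31.5 and 248 ± 91.4 units and let-7a-2-3p at 164 ± 87.4 and 274.5 ± 118 units (SD, n = 3), and no opposite arm had groups apart. The remaining 8 averaged 152 units or less in each group.

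Of the 5 listed cluster partners of let-7 genes, 3 were tested and 0 passed. No gene of miR-125b was among the neighbours found for the let-7 hairpins. All 3 tested partners had a lower mean in high phosphate, as did 51.9% of tested probes. The log2 differences were -0.09 for miR-99a-5p, -0.06 for miR-100-5p and -0.05 for miR-99b-5p, while miR-125a-5p and miR-125b-5p stayed below the threshold on all 6 arrays. A search for the shared seed among mature mouse miRNAs found 1 further probe on the array, miR-1961. It measured 15893 ± 2845 and 13449 ± 5081 units (SD, n = 3), with a log2 difference of 0.04 (SE 0.26; limma, adjusted p = 0.999).

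The 5 tested probes outside the family whose levels ran most like the members' mean over the 6 arrays were miR-3970 (r = 0.96), miR-29a-3p (r = 0.82), miR-27a-3p (r = 0.71), miR-361-5p (r = 0.60) and miR-19b-3p (r = 0.59). The first lies in blocks 14 and 32 with let-7f-5p and the next in blocks 13 and 31 with let-7c-5p, let-7e-5p and let-7i-5p. Each member is part of that mean, and let-7f-5p, which varied most, weighs most in it. The members' own r with it was 0.86 for let-7f-5p, 0.64 for let-7e-5p, 0.57 for let-7c-5p, 0.51 for let-7i-5p, 0.42 for miR-98-5p, 0.01 for let-7b-5p, -0.0024 for let-7g-5p, -0.20 for let-7a-5p and -0.71 for let-7d-5p. These correlations describe 6 arrays that share their groups and scaling, and carry no test.

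Defining miRNAs of endothelial cells were present, with miR-126a-3p and miR-126a-5p above the threshold on all 6 arrays. MiRNAs listed for other sources were detected in part, and how particular each is to its source was not tested. The red cell and serum list held miR-451a, miR-144-3p, miR-486a-5p, miR-16-5p and miR-122-5p. All 5 were tested, each with its normalized mean lower in high phosphate, as were 51.9% of tested probes. Their log2 differences ran from -0.38 to -0.01, and none passed the test. Their summed signal before scaling was 90604 to 103802 units in normal and 64899 to 75609 units in high phosphate. These sums did not overlap. Of single tested probes, 11.6% lay apart and lower in high phosphate before scaling, and 72.1% had a lower mean. Of 5 muscle miRNAs 3 were tested (miR-1a-3p, miR-206-3p and miR-143-3p). The other 2, miR-133a-3p and miR-145a-5p, stayed below the threshold on all 6 arrays. The summed list signal was 87571 to 116162 units in normal and 67272 to 94962 units in high phosphate. Of 5 leukocyte and platelet miRNAs 4 stayed below the threshold on every array, and 1 of 5 epithelial miRNAs was tested, with list sums of 5425 to 7964 and 4342 to 6048.5 units for the former and 6274 to 7918 and 5279 to 6641.5 units for the latter. The let-7 guides summed to 129007 to 135465 units in normal and 76676 to 110579 units in high phosphate, also without overlap. The same held for the cluster partners, at 36965 to 41182.5 and 26972.5 to 34634 units. Sums of the endothelial, muscle, leukocyte and platelet, and epithelial lists overlapped. Before scaling, 11.6% of single tested probes lay apart in that direction, and the control spots were dimmer too. The part of red cell, serum or muscle RNA in the let-7 signal was not tested.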

How the data were processed

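MicroRNA (miRNA) arrays of 1 colour (dye Hy3) were measured on 6 exosome RNA samples, 3 per phosphate level. Per the file headers, the authors deposited the intensity of each spot, as foreground and after subtraction of local background, with 4 spots for each probe described here. Per probe they also deposited a normalized intensity, the fold or ratio of the test to the control group, and its p-value with a false discovery rate. Each normalized intensity compared was, within 0.1%, the median of that probe's spots over 1 factor per array. No source used here names the scanner, the image software or the slides. Another 18 columns of sample values were not used.

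Background-subtracted spots were corrected with normexp (offset 50, limma 3.58.1, R 4.3.3) and averaged per probe. Quantile normalization between arrays used the mouse probes and 57 viral ones, followed by log2. The test took mouse probes whose signal exceeded the 95th percentile of the viral probes (the threshold, 1627 to 3233 units) on at least 3 arrays, which left 129 of 1118. High minus normal phosphate was fitted with limma's lmFit and eBayes, 2-sided, with Benjamini-Hochberg adjustment over all 129 and a call at 0.05. The fit was tested on simulated data. Pairs of arrays were also compared spot by spot. Between 383 and 938 of 15840 spots held equal values in a pair, so no array was a copy of another. Single values were compared with exact 2-sided permutation tests, whose smallest p with 3 against 3 arrays is 0.1. Alternatives covered background correction, scaling, the deposited values, the filter, the spot summary, the variance model, array weights, a replicate block and leaving out each array. Settings that use only blocks 1 to 18 or 19 to 36, or that leave out members of certain blocks, were chosen after seeing the data. The members and lists were chosen with earlier results of these data known. The text names all 9 guide strands, their opposite arms, the cluster partners, a few cell type markers and the 5 tested probes most correlated with the members' mean. MiR-1961 was named after a search of the sequences for the same seed. The labels do not tell whether arrays come from separate cultures, and p-values then cover only the spread between these samples, possibly a technical one. The number of arrays limits the precision.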

Additional observations from a re-analysis of the deposited data

How the results depend on the processing

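Of the 9 guide strands, 0 passed limma after adjustment under any alternative, and the lowest adjusted p among them was 0.325. All tested probes gave 0 calls except with scaling to the Hy3 spots, where 7 passed, none of them a let-7 member; the cause was not tested. The median of the guides moved to -0.44 without normalization between arrays, 0.22 with the spike controls, 0.25 with the Hy3 spots, -0.49 with the deposited intensities, -0.94 with blocks 1 to 18 and 0.026 with blocks 19 to 36. The number with a lower mean was 2 with each control scaling, where 7.75% of all tested probes were lower, and 4 with blocks 19 to 36, where 46.5% were. Leaving out each array moved the median between -0.21 and -0.08 and the number between 5 and 9. Over all tested probes the median then ran from -0.07 to 0.02 and the share lower from 45.7% to 58.9%.

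Directions turned most often for guides near 0. For let-7a-5p the log2 difference became -0.078 with median scaling, -0.22 without normalization, -0.23 with the deposited intensities, -0.073 with array weights, -0.033 with blocks 1 to 18 and -0.16 with those blocks without high phosphate replicate 2. For let-7d-5p the same settings except blocks 1 to 18 alone gave -0.13, -0.26, -0.32, -0.052 and -0.074, and the median of the spots -0.013. With the spike controls and the Hy3 spots the values were 0.22 and 0.25 for let-7b-5p, 0.43 and 0.47 for let-7e-5p, 0.34 and 0.38 for let-7g-5p, 0.12 and 0.16 for let-7i-5p, and 0.16 and 0.19 for miR-98-5p. With blocks 19 to 36 they were 0.14 for let-7e-5p, 0.19 for let-7i-5p and 0.29 for miR-98-5p, and before scaling 0.37, 0.49 and 0.29. With blocks 1 to 18 and without high phosphate replicate 2 they were 0.038 for let-7b-5p and 0.22 for let-7f-5p. The let-7a-5p to let-7e-5p ratio became -0.064 with the deposited intensities, -0.061 with the median of the spots and -0.33 with blocks 19 to 36, against 1.00 with blocks 1 to 18. For let-7c-5p, whose direction held throughout, the alternatives ran from -1.77 with the deposited intensities to -0.23 with blocks 1 to 18 without high phosphate replicate 2.

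Leaving out each array gave ranges from -0.16 to 0.13 for let-7a-5p, -0.21 to 0.035 for let-7b-5p, -0.14 to 0.17 for let-7d-5p, -0.22 to 0.0040 for let-7e-5p, -1.97 to 0.20 for let-7f-5p, -0.28 to -0.06 for let-7g-5p, -0.56 to -0.15 for let-7i-5p, -1.01 to -0.35 for let-7c-5p and -0.79 to 0.16 for miR-98-5p. Before scaling they ran from -0.35 to 0.049 for let-7a-5p and -0.64 to 0.023 for miR-98-5p, and for the ratio of let-7a-5p to let-7e-5p from -0.18 to 0.16 and to let-7f-5p from -0.58 to 1.92. Whether replicate numbers pair the arrays was checked by the correlation of same-numbered arrays' deviations, which was 0.22, 0.03 and -0.18. They share only a number, and the replicate block gave 0 calls and the same median of -0.18.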
